A study of Mus musculus with 2 samples.

Results

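The interferon-induced genes described here are a fixed list of 37 genes, of which 36 were in the feature list of 31053 genes and are called members below (Mx2 was not analysed here). They were measured in 2 single-cell RNA sequencing libraries of mouse intestinal lamina propria, the connective tissue under the gut epithelium. Barcodes with at least 3000 UMIs (unique molecular identifiers, counts of single captured transcripts) and at most 20% mitochondrial UMIs were taken as cells. The rule left 6599 cells of the ApcMin library and 6569 of the VApcMinL library. Both came from C57BL/6 mice killed at 11 weeks that carried the ApcMin/+ allele, a germline mutation of the Apc tumor suppressor that causes intestinal adenomas. The ApcMin mice were Lef1 +/+, and the VApcMinL mice were Lef1 fl/fl with Villin-Cre, a recombinase driven by an epithelial promoter, so the deletion is made in gut epithelium and not in the stromal cells sorted. Live cells without Ter119, Epcam and CD45 (markers of red, epithelial and blood cells) were sorted after Liberase digestion. The number of mice per library is not given in the labels, and with 1 library per genotype no test was possible. Differences between the libraries therefore cannot be told apart from differences between mice or dissections, and all intervals below are exact 95% intervals that cover counting error only.

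Interferons are secreted warning signals of infection and inflammation. Type I and III interferons act through JAK kinases on a complex that includes Stat2 and Irf9 and binds the interferon-stimulated response element (ISRE), whereas interferon gamma acts mainly through the gamma-activated site (GAS). In the intestine, a low interferon tone is present without infection and is known to depend on the microbiota. The members were grouped by role: 20 listed genes restrict viruses (19 measured), 9 sense nucleic acids or control the response, 5 are GTPases typical of interferon gamma, and 3 serve antigen processing.

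Promoter sequences are shown for 5 members on which the results turn: Ifit1, Isg15 and Rsad2, virus-restriction genes whose mean level of both libraries was highest in blood endothelial-like cells, and Ifitm1 with its neighbour Ifitm3, whose ratios between the libraries differed. Each is the RefSeq window (build GRCm38.p6) of 250 bases before and 50 bases after an annotated start, written 5′ to 3′ on the gene's strand, with matches to the ISRE core GAAANNGAAA on either strand in capitals.
Ifit1, chr19:34640639-34640938, + strand: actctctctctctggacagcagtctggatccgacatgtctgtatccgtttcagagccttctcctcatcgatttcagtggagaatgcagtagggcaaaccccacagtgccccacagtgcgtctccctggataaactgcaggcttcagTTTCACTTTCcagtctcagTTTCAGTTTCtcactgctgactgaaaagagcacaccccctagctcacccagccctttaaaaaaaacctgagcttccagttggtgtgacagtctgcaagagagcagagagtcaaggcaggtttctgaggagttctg
Isg15, chr4:156200769-156201068, - strand: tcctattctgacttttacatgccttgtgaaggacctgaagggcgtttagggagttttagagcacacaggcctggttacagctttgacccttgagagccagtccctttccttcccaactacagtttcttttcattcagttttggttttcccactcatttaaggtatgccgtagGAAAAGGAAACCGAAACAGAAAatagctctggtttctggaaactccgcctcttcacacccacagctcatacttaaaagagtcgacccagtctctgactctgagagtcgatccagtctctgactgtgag
Rsad2, chr12:26456403-26456702, - strand: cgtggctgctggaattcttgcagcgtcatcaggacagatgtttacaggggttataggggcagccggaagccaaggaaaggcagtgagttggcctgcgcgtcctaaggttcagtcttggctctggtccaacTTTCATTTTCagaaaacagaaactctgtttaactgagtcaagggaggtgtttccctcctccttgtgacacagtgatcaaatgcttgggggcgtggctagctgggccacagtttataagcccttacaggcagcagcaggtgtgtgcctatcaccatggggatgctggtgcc
Ifitm1, chr7:140967826-140968125, + strand: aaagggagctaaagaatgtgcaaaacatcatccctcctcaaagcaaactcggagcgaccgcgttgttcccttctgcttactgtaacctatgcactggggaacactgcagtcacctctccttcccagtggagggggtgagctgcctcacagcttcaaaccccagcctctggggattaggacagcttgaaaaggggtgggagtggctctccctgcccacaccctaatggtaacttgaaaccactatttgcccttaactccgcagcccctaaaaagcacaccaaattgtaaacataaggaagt
Ifitm3, chr7:141010695-141010994, - strand: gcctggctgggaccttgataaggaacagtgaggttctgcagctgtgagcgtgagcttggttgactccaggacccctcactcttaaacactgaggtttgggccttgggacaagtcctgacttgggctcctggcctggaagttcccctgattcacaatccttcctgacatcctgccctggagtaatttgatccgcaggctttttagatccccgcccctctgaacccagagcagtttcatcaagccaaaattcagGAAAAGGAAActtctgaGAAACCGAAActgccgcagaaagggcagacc
The Ifit1 window held matches beginning 104 and 85 bases before the start, Isg15 held 3 overlapping matches 78, 72 and 66 bases before it, and Rsad2 held 1 match 120 bases before it. In Ifitm3 the matches lay 2 and 19 bases after the start. No match was found in the Ifitm1 window, whose start lies inside the gene as GENCODE vM21 annotates it (chr7:140967221-140969825 on GRCm38).

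RefSeq windows were matched for 30 of the 37 listed genes. The ISRE core was found in 17 of them (56.7%), against 3.99% of the 27025 genes with a window. These were Bst2, Ddx58, Gbp2, Gbp3, Gbp7, Ifih1, Ifit1, Ifit3, Ifit3b, Ifitm2, Ifitm3, Igtp, Irgm1, Isg15, Oas1a, Rsad2 and Stat2, and 9 of them held at least 2 matches. The GAS letters TTCNNNGAA, searched on both strands, were found in 10 members (33.3%), against 9.55% of all genes, and overlapped an ISRE match in 2 windows. Irf1, Irf8, Psmb8, Ifit2 and Ifi35 held a GAS match and no ISRE match. A match is a description of the letters and does not show a bound site. The Ifit genes lie side by side on chromosome 19 (Ifit2 at chr19:34550694-34576419, Ifit3 at chr19:34583531-34588731, Ifit3b at chr19:34607970-34613401 and Ifit1 at chr19:34640871-34650009, all on the + strand). Ifit3 and Ifit3b are near-identical copies, so the split of reads between them is uncertain. Exons of Ifitm2 overlap Gm45717, those of Irf9 overlap Rnf31 and those of Igtp overlap Irgm2 on the same strand, so their counts are uncertain as well.

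Cells were clustered without the members and placed in 17 classes by marker genes, called "-like" below. The names and the minimum of 100 cells per library for comparing libraries were set after the data were seen. The clustering gave 3318 fibroblast-like cells in ApcMin and 3610 in VApcMinL, in 5 subsets led by Pi16, Grem1 with Ackr4, Adamdec1, Lpl with Penk and Plau, or Scg2 with Chodl and Fibin. Blood endothelial-like cells were 124 and 484, and lymphatic endothelial-like cells 38 and 174. Despite the gates, erythroid-like cells (1366 and 362), B-like cells (661 and 356), plasma-like cells (474 and 542), myeloid-like cells (287 and 222), T or innate lymphoid-like cells (116 and 84) and epithelial-like cells (49 and 346) were present. Smooth muscle-like (73 and 143) and glial-like cells (28 and 173) made up most of the rest, and 18 barcodes were found in both libraries. The myeloid-like cluster was led by the mast cell proteases Mcpt2 and Mcpt1 as well as by the macrophage genes C1qa, C1qb and C1qc. Total UMIs were 93203061 in ApcMin and 101609269 in VApcMinL, of which 83.6% and 74.4% were in cells, with a median of 10849 and 9111 UMIs per cell. Lef1 itself was near the limit of detection, with 122 and 115 UMIs in all cells and 22 and 29 UMIs in the epithelial-like cells, so these stromal libraries give no check of the deletion. Levels below are UMIs of a gene per 1000000 UMIs of all cells in the class (CPM).

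Among the classes with at least 50 cells in all, endothelial cells held the highest summed levels of the members, and B, plasma and erythroid cells were among the lowest. Summed over the 36 members, blood endothelial-like cells had 7145 CPM (6984 to 7309) in ApcMin and 9862 CPM (9755 to 9970) in VApcMinL. Lymphatic endothelial-like cells had 7670 CPM (7391 to 7957) and 8606 CPM (8450 to 8763), above the blood endothelial-like cells in ApcMin and below them in VApcMinL. Mesothelial-like cells, only 7 and 34 cells, had 8770 and 7653 CPM, and fibroblast-like cells had 4781 and 5389 CPM. Myeloid-like cells had 4121 and 3962 CPM, B-like cells 1203 and 1127 CPM, and plasma-like cells 782 and 838 CPM. Erythroid-like cells were at the bottom with 518 and 674 CPM.

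Much of this sum came from 3 genes, Ifitm1, Ifitm2 and Ifitm3, small membrane proteins that block the fusion of enveloped viruses with the cell. Without them the order changed. Blood endothelial-like cells then had 3840 CPM (3722 to 3961) and 6283 CPM (6198 to 6369), lymphatic endothelial-like cells 3327 and 2748 CPM, and glial-like cells 3095 and 3217 CPM. Myeloid-like cells (2151 and 2298 CPM) then stood above the fibroblast-like cells (1488 and 1391 CPM). The intervals of lymphatic endothelial-like and glial-like cells overlapped in ApcMin (3144 to 3517 against 2854 to 3351 CPM), so this pair was not ordered there, whereas glial-like cells were the higher of the pair in VApcMinL (3112 to 3324 against 2661 to 2838 CPM).

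Of the 36 members, 19 had their highest mean level of both libraries in blood endothelial-like cells, 6 in lymphatic endothelial-like cells, 4 in glial-like cells and 4 in myeloid-like cells (mesothelial-like and acinar-like cells, with under 50 cells in all, were left out of this ranking). The 19 included the RNA-binding effectors Ifit1 and Ifit2, the ubiquitin-like modifier Isg15, the radical SAM enzyme Rsad2 (viperin) and the transcription factors Irf1, Irf7 and Irf9. Lymphatic endothelial-like cells were highest for Gbp2 (293 and 157 CPM) and Gbp7 (352 and 240.4 CPM), guanylate-binding GTPases that attack the vacuoles of intracellular pathogens. They were also highest for Bst2 (tetherin, which holds budding virions on the cell), the immunoproteasome subunit Psmb9, Ifitm3 and the nucleic acid sensor Zbp1. These ranks are of means. In VApcMinL alone, blood endothelial-like cells had more Gbp7 than lymphatic endothelial-like cells and nearly the same level of Gbp2. Glial-like cells were highest for Ifi27 (280.4 and 336 CPM), Ifit3, Ifit3b and Xaf1, a binding partner of the apoptosis inhibitor XIAP. For Ifit3 and Ifit3b this held for the mean only and rested on the 28 glial-like cells of ApcMin. In VApcMinL the glial levels of both were below those of blood endothelial-like cells. The glial level of Ifit3 there was at least 1.5-fold lower than in ApcMin. Myeloid-like cells were highest for Irf8, a factor required for dendritic cells and macrophages, with 409.7 CPM in ApcMin and 308 CPM in VApcMinL, followed by B-like cells with 309.6 and 228 CPM. Of the last 3 members, Psmb8 was highest in T or innate lymphoid-like cells, Ifitm1 in the Adamdec1 fibroblast subset and Ifitm2 in the Scg2 Chodl Fibin subset.

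**Figure D1:**
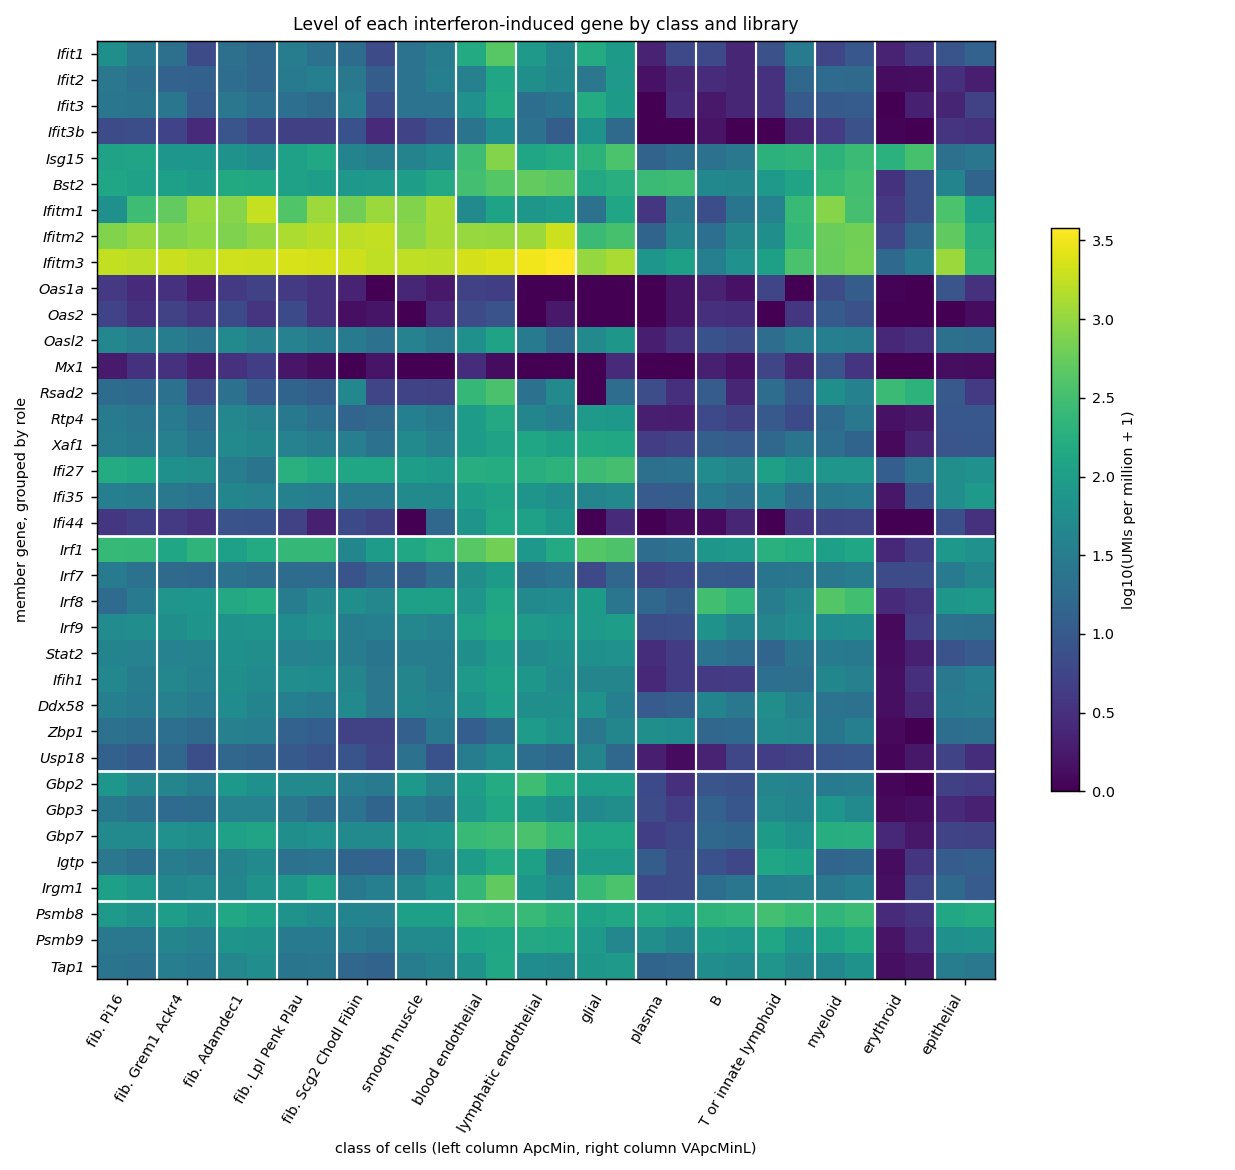
Level of each of the 36 members (rows, grouped by role) in 15 classes of cells (columns), as log10 of CPM plus 1, with the ApcMin library on the left and the VApcMinL library on the right of each class. The rows of Ifitm2 and Ifitm3 are bright in fibroblast-like, muscle-like and endothelial-like cells, while the column of erythroid-like cells is dark except for Isg15 and Rsad2.

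Some members were hardly detected. The double-stranded RNA sensors Oas1a and Oas2, which make the second messenger that activates RNase L, and the dynamin-like GTPase Mx1 had their highest mean levels in myeloid-like cells, where they had 5.84 and 10.4 CPM (Oas1a), 9.24 and 6.63 CPM (Oas2) and 8.03 and 2.49 CPM (Mx1). In VApcMinL alone, the Adamdec1 fibroblast subset had more Mx1, at 3.66 CPM. By contrast, Oasl2, a relative of the Oas enzymes, reached 61.5 and 113 CPM in blood endothelial-like cells.

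Among the groups compared between the libraries, blood endothelial-like cells had the most members past 1.5-fold. Of the 33 members with at least 50 UMIs in these cells, 19 were at least 1.5-fold higher in VApcMinL and 0 were at least 1.5-fold lower (8 and 0 of 32 among cells with at least 6000 UMIs, against 10.5% and 8.60% of genes there). Over all 7980 genes with at least 50 UMIs there, 8.98% were at least 1.5-fold higher and 8.68% at least 1.5-fold lower. The median log2 ratio of VApcMinL over ApcMin was 0.66 over the members and -0.02 over all genes, and 30 of the 33 members had a ratio above 1. The summed level of the 33 members other than Ifitm1, Ifitm2 and Ifitm3 differed by a ratio of 1.64 (1.58 to 1.69).

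The largest ratios were those of Ifit2, Ifit1, Isg15, Ifit3 and Ifitm1. Ifit2 had 34.6 CPM (24.2 to 47.9) in ApcMin and 129 CPM (117 to 142) in VApcMinL, a ratio of 3.73 (2.65 to 5.40). Ifit1, which binds foreign 5′ ends of RNA, had 153 CPM (130 to 178.5) and 447 CPM (424 to 470.1), a ratio of 2.92. Isg15 had 293 CPM (261 to 328) and 807 CPM (777 to 838), a ratio of 2.75. The intervals of both libraries lay apart for each of these 3 genes. Ifit3 had 62.5 and 147 CPM, a ratio of 2.35, and Ifit3b 23.1 and 53.5 CPM. Among cells with at least 6000 UMIs the ratios were smaller, at 2.22 (1.405 to 3.67) for Ifit2, 1.88 (1.501 to 2.38) for Ifit1, 2.19 (1.88 to 2.57) for Isg15 and 1.19 (0.860 to 1.68) for Ifit3, which was no longer past 1.5-fold. For Rsad2, which makes a chain-terminating nucleotide, the levels were 236 CPM (208 to 268) and 353 CPM (333 to 374), a ratio of 1.49 that lies just under 1.5. In all blood endothelial-like cells the other restriction genes past 1.5-fold were Oasl2, Rtp4 (a receptor transporter that binds viral RNA), Ifi44 (69.2 and 128 CPM) and Ifitm1. Only Ifitm1 of these was still among the members past 1.5-fold in cells with at least 6000 UMIs. The Ifitm1 ratio of 2.34 ranged from 1.59 with cells classed by their own markers to 7.56 without likely doublets. It rested on few cells, since 10 of the 124 cells held 90.4% of its UMIs in ApcMin and 10 of the 484 cells held 56.7% in VApcMinL, and after thinning every cell to 3000 UMIs it was detected in 9.68% and 8.26% of cells. Bst2 (317 and 428 CPM), Xaf1 (90.3 and 113 CPM) and Ifi35 (98.0 and 115 CPM) were higher by less than 1.5-fold, and Ifi27 (166 and 161 CPM), Ifitm2 (1046 and 1007 CPM) and Ifitm3 (2209 and 2456 CPM) had ratios between 0.963 and 1.11.

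Among the genes of sensing and control in blood endothelial-like cells, all 9 had a ratio above 1 and 5 were past 1.5-fold. These were Irf7, Irf8, Stat2, Zbp1 and Usp18, the last a protease that removes Isg15 from proteins and damps receptor signaling (30.8 and 48.7 CPM). Irf1, the factor first induced by interferon gamma, had 438 CPM (399 to 480.4) and 651 CPM (624 to 679), a ratio of 1.49. Irf9 and the RNA sensors Ifih1 (MDA5) and Ddx58 (RIG-I) had ratios between 1.31 and 1.43. Of the 5, Zbp1 (11 and 57 UMIs) and Usp18 (32 and 161 UMIs) had levels whose intervals overlapped. Among cells with at least 6000 UMIs, only Irf8 of the 5 was among the members past 1.5-fold.

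The GTPases typical of interferon gamma followed the same direction. Irgm1, an immunity-related GTPase that guards host membranes, had 236 CPM (208 to 268) in ApcMin and 508 CPM (484 to 533) in VApcMinL, a ratio of 2.15 (1.88 to 2.47). Gbp2 (96.1 and 156 CPM), Gbp3 (81.7 and 138 CPM) and Igtp (92.3 and 153 CPM) were past 1.5-fold as well, and Gbp7 had 256 and 295 CPM. Of the antigen processing genes, the peptide transporter Tap1 had 68.2 CPM (53.3 to 86.1) and 136 CPM (124 to 149). The immunoproteasome subunits Psmb8 (254 and 243 CPM) and Psmb9 (119 and 127 CPM) had intervals that overlapped between the libraries. Among cells with at least 6000 UMIs, Irgm1 and Tap1 were still among the members past 1.5-fold, and Gbp2, Gbp3 and Igtp were not.

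**Figure D2:**
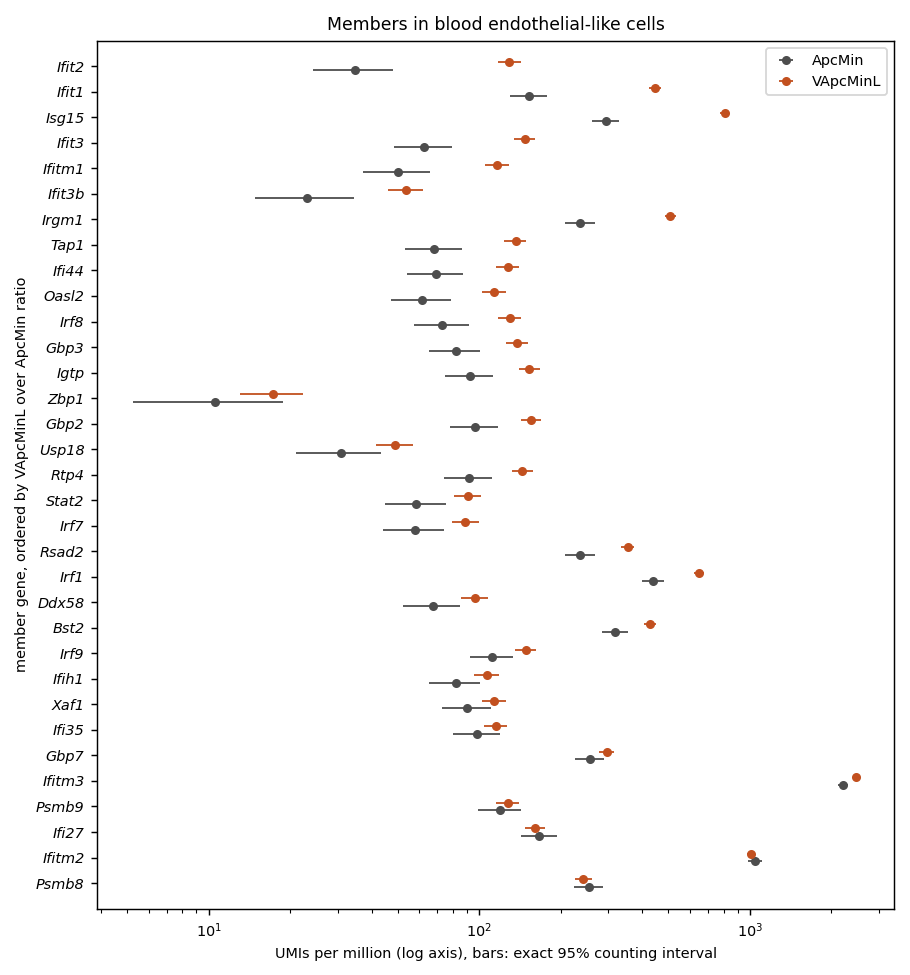
CPM (log axis) of the 33 members with at least 50 UMIs in blood endothelial-like cells, ordered by their ratio, with ApcMin in grey and VApcMinL in orange and bars for the exact 95% counting interval. VApcMinL lies to the right for 30 of the 33 members, with the widest gaps for Ifit2, Ifit1 and Isg15, and the points of Psmb8 and Ifitm2 nearly coincide.

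The other genes of the pathway, a list of 90 genes of which 87 were in the feature list, also differed in these cells. With at least 50 UMIs were 68 of them, and 29 were at least 1.5-fold higher in VApcMinL and 3 at least 1.5-fold lower, against 8.98% and 8.68% of all genes, with a median log2 ratio of 0.36. The interferon-induced chemokines that attract T cells had the largest ratios: Cxcl10 had 95.1 and 508 CPM, a ratio of 5.34 (4.36 to 6.61), and Cxcl9 had 32.7 and 160 CPM, a ratio of 4.91. The Oas relative Oasl1 had 11.5 and 43.9 CPM. Cd274, which encodes the checkpoint ligand PD-L1, had 34.6 and 119 CPM. The genes lower by at least 1.5-fold were Ifi27l2a (423 and 135 CPM), Lgals3bp (92.3 and 59.3 CPM) and Mavs (19.2 and 11.2 CPM), the adaptor of the RNA sensors. Of the 13 receptor and signaling genes, 2 were past 1.5-fold, the kinase Jak2 and the feedback inhibitor Socs3 (258 and 481.5 CPM). The intervals of the receptor genes Ifnar1 and Ifnar2 overlapped between the libraries. The abundant class I genes B2m (2160 and 2659 CPM), H2-D1 (1651 and 1866 CPM) and H2-K1 (1664 and 1769 CPM) had ratios between 1.06 and 1.23.

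The ligands were almost absent from the libraries. None of the 10 interferon genes listed reached 50 UMIs in any of the 10 groups compared (all fibroblast-like cells, their 5 subsets, blood endothelial-like, plasma-like, B-like and myeloid-like cells). Interferon gamma (Ifng) was found in T or innate lymphoid-like cells, with 117 UMIs (132 CPM, 109.5 to 158.7) among 116 cells of ApcMin and 35 UMIs (46.8 CPM, 32.6 to 65.1) among 84 cells of VApcMinL. In any other class, and in all fibroblast-like cells together, it had at most 11 UMIs in a library. The T or innate lymphoid-like cells of VApcMinL were under the minimum of 100 cells for comparing libraries. Their class also differed in purity, as its 11 T or innate lymphoid markers summed to 6500 CPM in ApcMin and 4060 CPM in VApcMinL. The 7 plasma markers summed to 3451 and 17713 CPM there, and the 7 fibroblast markers to 1308 and 4869 CPM.

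The set of 6 virus-restriction genes (Ifit1, Ifit2, Ifit3, Ifit3b, Isg15 and Rsad2), chosen after their levels were seen, was counted in each cell after thinning to 3000 UMIs. At least 3 of the 6 were detected in 19 of 124 cells of ApcMin (15.3%, 9.49 to 22.9) and in 148 of 484 cells of VApcMinL (30.6%, 26.5 to 34.9). The shares of cells with 0 of the 6 had overlapping intervals, at 31.5% (23.4 to 40.4) and 28.1% (24.1 to 32.3). Without thinning, the shares with at least 3 of 6 were 31.5% and 40.3%. In plasma-like cells, which had little of these genes, the thinned shares were 0.211% and 0.184%, at median depths of 7265 and 4828 UMIs against 6057 and 5078 UMIs in the blood endothelial-like cells. The 90th percentile of the number of members detected per thinned cell was 12.7 in ApcMin and 19.7 in VApcMinL, with medians of 8 and 9 (members other than Ifitm1, Ifitm2 and Ifitm3).

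The size of the difference depended on the depth of the cells. Among cells with 3000 to under 6000 UMIs (61 and 307 cells), the members without Ifitm1, Ifitm2 and Ifitm3 had 4783 CPM (4526 to 5050) and 8909 CPM (8748 to 9072). Among cells with at least 6000 UMIs (63 and 177 cells) the levels were 3507 CPM (3376 to 3642) and 4561 CPM (4468 to 4656). The direction was the same in both bands, and the intervals did not overlap in either.

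**Figure D3:**
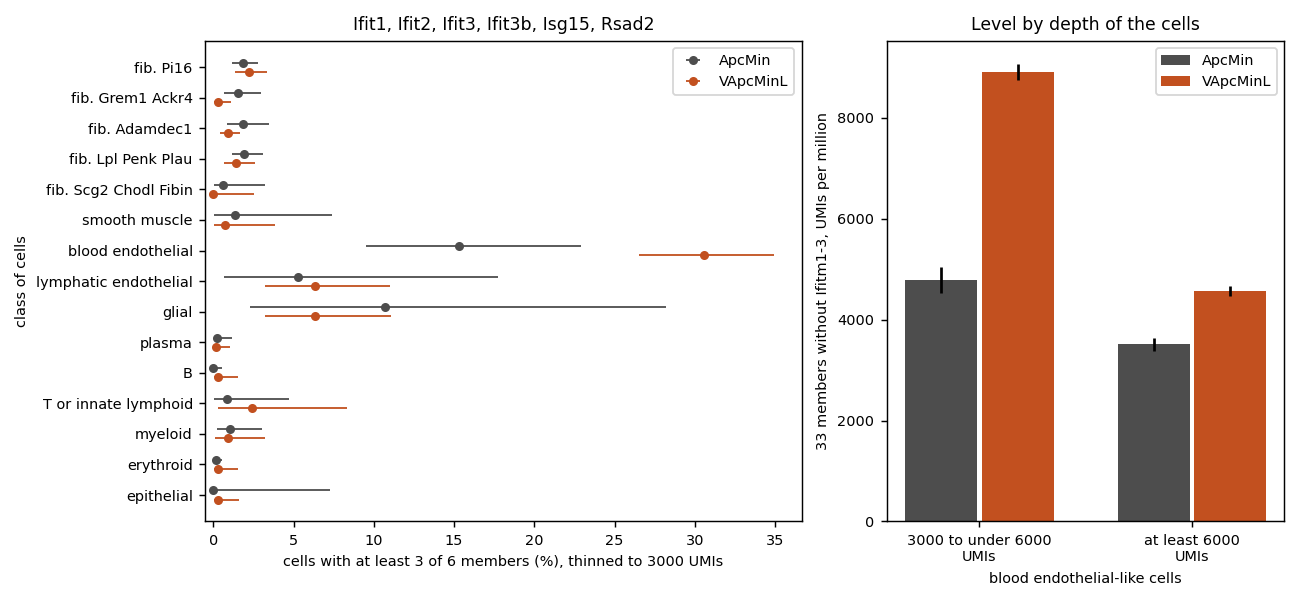
Left, share of cells (%) with at least 3 of 6 virus-restriction members after thinning to 3000 UMIs, for 15 classes and both libraries, with exact 95% intervals. Right, summed level (CPM) of 33 members in blood endothelial-like cells by depth band. Blood endothelial-like cells are at 15.3% and 30.6%, with an interval that overlaps those of glial-like and lymphatic endothelial-like cells in ApcMin, and VApcMinL is higher in both bands.

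Other properties of these cells also moved between the libraries, and their part in the result was not tested. Free RNA made up at most 2.44% and 3.54% of the UMIs. In blood endothelial-like cells the 7 fibroblast markers summed to 6364 CPM in ApcMin and 1735 CPM in VApcMinL, the 7 pericyte markers to 90.3 and 745 CPM (Higd1b at 0 in ApcMin), the 8 erythroid markers to 60359 and 26718 CPM, and the 11 epithelial markers to 23.1 and 400.5 CPM (Epcam, Krt18, Krt20, Cdh1 and Cldn7 at 0 in ApcMin). The 14 dissociation genes, which respond to tissue digestion, summed to 22618 and 26005 CPM. The 12 myeloid markers summed to 185.5 and 106 CPM and the 11 T or innate lymphoid markers to 71.1 and 68.7 CPM. With cells holding a Pdgfra, Ptprc or Epcam UMI left out (103 and 385 cells kept), the summed level without Ifitm1, Ifitm2 and Ifitm3 was 4298 and 6642 CPM, and 17 of 32 members were at least 1.5-fold higher and 0 lower, against 10.1% and 5.46% of genes. Among cells with a UMI of the capillary genes Cd36 or Gpihbp1 (120 and 452 cells), it was 3916 and 6412 CPM, and 20 of 33 members were at least 1.5-fold higher and 0 lower, against 8.63% of genes in each direction. Both genes are among the leading genes of this class, and the filter kept 96.8% and 93.4% of its cells, so it could change little.

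In fibroblast-like cells the members as a whole differed little, apart from Ifitm1. All 36 members passed the minimum there, and 3 were at least 1.5-fold higher in VApcMinL (Ifitm1, Irf8 and Mx1) and 3 at least 1.5-fold lower (Ifit1, Oas2 and Rsad2), against 11.4% and 4.17% of 14135 genes. Their median log2 ratio was -0.14, against 0.02 over all genes, and 13 of 36 had a ratio above 1. Ifit1 had 39.2 CPM (37.4 to 41.0) in ApcMin and 17.4 CPM (16.2 to 18.8) in VApcMinL, the opposite of the blood endothelial-like cells. Rsad2 had 18.9 and 10.8 CPM. Oas2 (4.39 and 2.33 CPM) and Mx1 (1.15 and 2.01 CPM) were near the limit of detection. Irf8 had 48.8 CPM (46.8 to 50.9) and 77.7 CPM (75.0 to 80.5), but its level differed among subsets, from 16.6 CPM in the Pi16 subset to 143.5 CPM in the Adamdec1 subset of ApcMin. The Adamdec1 subset was 492 cells in ApcMin and 1128 in VApcMinL, so the sum over fibroblast-like cells mixes subsets in different shares. Of the other pathway genes, 70 passed the minimum, and 0 were at least 1.5-fold higher and 1 (Slfn2, 13.1 and 8.24 CPM) at least 1.5-fold lower. The most abundant of them were Ifi27l2a (1540 and 1569 CPM), B2m (1355 and 1226 CPM) and H2-D1 (963 and 1050 CPM).

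The counts differed among the subsets. In the Pi16 subset 2 of 35 members were at least 1.5-fold higher and 4 lower, against 8.77% and 5.31% of genes. Ifit1 there had 60.2 CPM (56.8 to 63.8) in ApcMin and 26.7 CPM (24.0 to 29.65) in VApcMinL, Gbp2 had 74.4 and 44.5 CPM, Oas2 had 4.20 and 2.35 CPM, Oas1a 2.88 and 1.74 CPM, and Irf8 had 16.6 and 29.7 CPM. In the Grem1 Ackr4 subset 2 of 32 were higher and 6 lower (3 lower among members with at least 200 UMIs), against 4.50% and 4.88%, with Irf1 at 126 and 208 CPM. The lower members there were Ifit1 (19.8 and 5.66 CPM), Rsad2 (20.5 and 5.90 CPM), Ifit3 (24.7 and 10.1 CPM), Usp18 (15.0 and 6.27 CPM), Rtp4 and Oas2. In the Adamdec1 subset 3 of 36 were higher and 3 lower, against 7.86% and 4.70%, with Irgm1 at 43.2 and 65.55 CPM and Rsad2 at 21.5 and 9.79 CPM. Among the other pathway genes, Cxcl9 (12.3 and 34.0 CPM) and the GTPase Iigp1 (274 and 477 CPM) were higher in VApcMinL in this subset, whereas Cxcl9 was lower in the other 4, with 20.0 and 5.92 CPM in the Lpl Penk Plau subset. In the Lpl Penk Plau subset 2 of 33 were higher (Ifitm1 and Irf8) and 2 lower (Oas2 and Ifit1, the latter with 31.7 and 21.0 CPM), against 4.96% and 4.70%. In the Scg2 Chodl Fibin subset 2 of 28 were higher and 8 lower, against 9.18% and 5.34%. The higher were Ifitm1 and Irf1 (43.1 and 92.1 CPM), and the lower were Rsad2, Ifit1, Ifit2, Ifit3, Xaf1, Ifih1, Ddx58 and Gbp3. The count of 8 became 5 with cells classed by their own markers, 2 without the 10 cells with the most member UMIs, and 0 after thinning or among members with at least 200 UMIs. Some of the 8 rested on few cells: all UMIs of Ifit1 and Rsad2 in this subset came from 10 cells in each library, and after leaving out the 10 cells with the most member UMIs the ratio of Rsad2 changed from 0.101 to 1.29, that of Ifit1 from 0.336 to 5.79, that of Ifit2 from 0.403 to 0.930 and that of Ifit3 from 0.1965 to 0.965.

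**Figure D4:**
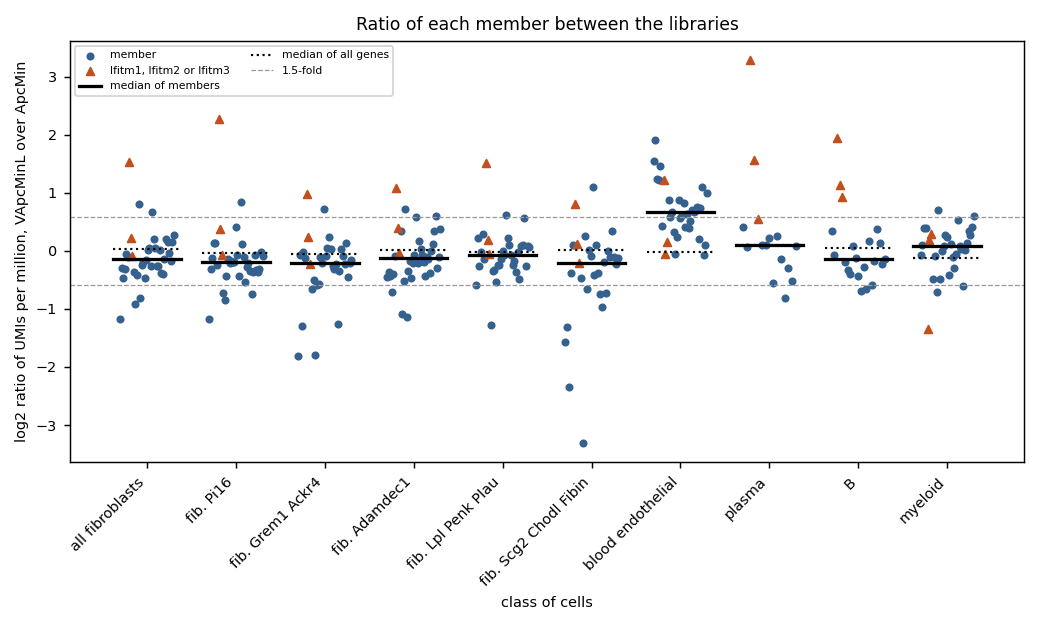
Log2 ratio of VApcMinL over ApcMin for each member with at least 50 UMIs (points, triangles for Ifitm1, Ifitm2 and Ifitm3) in 10 groups of cells, with the median of the members (solid), the median of all genes (dotted) and 1.5-fold (dashed). The members' median is 0.66 in blood endothelial-like cells and between -0.21 and 0.10 in the other groups.

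Ifitm1 was higher in VApcMinL in all 5 fibroblast subsets. In Pi16 cells it had 60.9 CPM (57.4 to 64.5) and 295 CPM (285 to 304), a ratio of 4.84 (3.67 to 5.53 over the processing alternatives). In Lpl Penk Plau cells it had 402 and 1141 CPM, a ratio of 2.84, and in Adamdec1 cells, which had the highest level, 851 CPM (828 to 874) and 1810 CPM (1785 to 1836), a ratio of 2.13. Grem1 Ackr4 cells had 519 and 1021 CPM, and Scg2 Chodl Fibin cells 626 and 1089 CPM. Smooth muscle-like cells, with 73 cells in ApcMin under the minimum for comparing libraries, had 791 CPM (726 to 861) and 1268 CPM (1207 to 1331). This class was not muscle alone, as Bmp5, a subepithelial fibroblast marker, was among its 10 leading genes. Its 7 fibroblast markers summed to 13078 and 8848 CPM and its 9 subepithelial fibroblast markers to 2063 and 1956 CPM. The 5 Adamdec1 subset markers in this class summed to 3018 and 6697 CPM. The part of this mixture in its Ifitm1 levels was not tested. In no fibroblast subset did the intervals of Ifitm1 overlap, and in both libraries the Adamdec1 subset was highest and the Pi16 subset lowest. The Pi16 subset itself differed in its markers. Its 6 Pi16 subset markers summed to 2061 CPM in ApcMin and 1021 CPM in VApcMinL, and the 5 Adamdec1 subset markers to 918 and 1281 CPM. The Adamdec1 subset markers were higher in VApcMinL in the other subsets too. They summed to 10678 and 15031 CPM in Adamdec1, 1518 and 2020 CPM in Grem1 Ackr4, and 2745 and 3492 CPM in Lpl Penk Plau cells. In Scg2 Chodl Fibin cells they summed to 837 and 884 CPM. The part of these shifts in the Ifitm1 ratios was not tested.

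The neighbouring genes of the family differed less. Over all fibroblast-like cells Ifitm1 had 353 CPM (348 to 359) and 1020 CPM (1010 to 1030), a ratio of 2.89, whereas Ifitm2 had 962 and 1117 CPM, a ratio of 1.16, and Ifitm3 1977 and 1861 CPM, a ratio of 0.941. Ifitm2 was higher in VApcMinL in 5 of 5 subsets and Ifitm3 in 0 of 5. Ifitm1 was also detected in more cells: in Pi16 cells thinned to 3000 UMIs the share was 11.1% (9.38 to 12.9) and 34.2% (31.2 to 37.3), or 25.5% and 54.2% without thinning. In B-like cells, which had little of it, the thinned shares were 1.97% and 3.37%, at median depths of 4870 and 4623 UMIs against 14954 and 13356 UMIs in Pi16 cells. Empty droplets, which hold free RNA, had 164 CPM of Ifitm1 in ApcMin and 239 CPM in VApcMinL. Free RNA made up at most 2.15% and 1.79% of the UMIs of Pi16 cells, as estimated from hemoglobin, antibody and epithelial transcripts.

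In myeloid-like cells Ifitm1 went the other way, with 836 CPM (809 to 865) in ApcMin and 331 CPM (308 to 354) in VApcMinL. This value rested on mast cell-type transcripts. Cells with at least 3 UMIs of Cpa3, Kit, Cma1 and Fcer1a, a split chosen after the levels were seen, numbered 24 of 287 in ApcMin and 2 of 222 in VApcMinL and had 5442 CPM (5227 to 5665) and 7742 CPM (6746 to 8843) of Ifitm1. The remaining 263 and 220 cells had 282 CPM (265 to 300) and 244 CPM (224 to 264). In epithelial-like cells, which were too few in ApcMin to compare (49 cells), 98.6% of the Ifitm1 UMIs and 94.8% of the Ifitm3 UMIs of that library came from 10 cells.

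**Figure D5:**
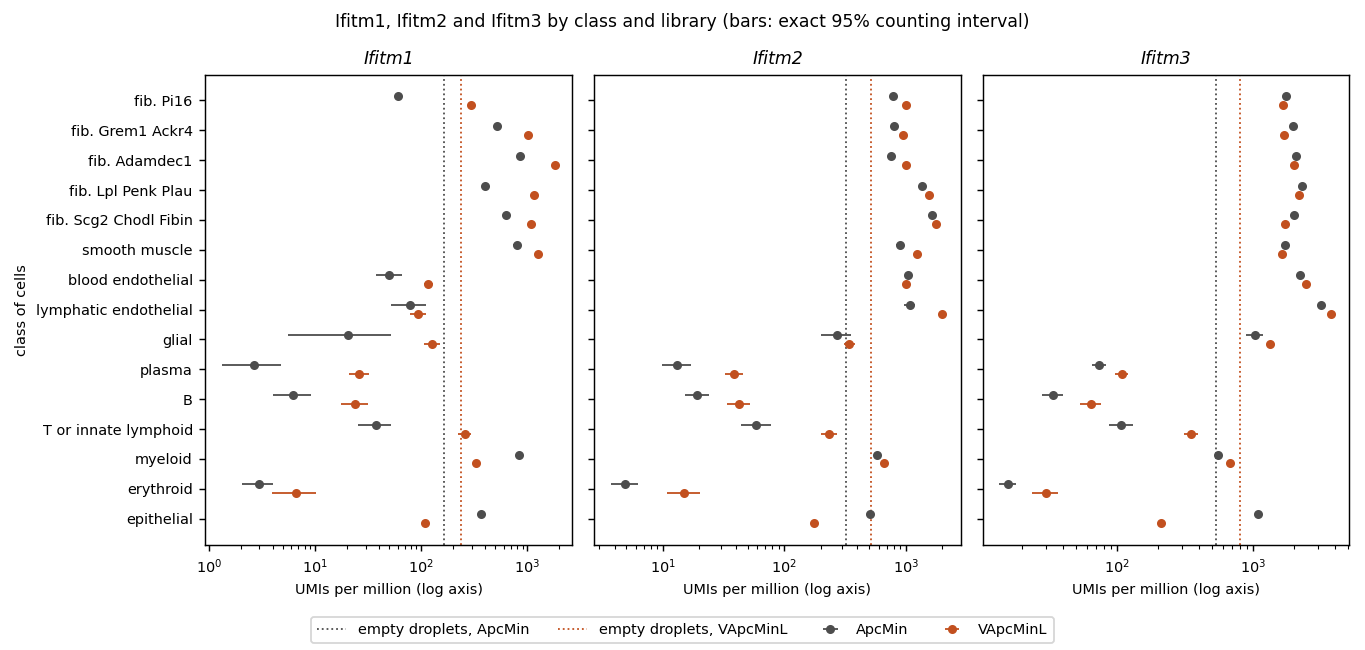
CPM (log axis) of Ifitm1, Ifitm2 and Ifitm3 in 15 classes, ApcMin in grey and VApcMinL in orange, with exact 95% counting intervals and dotted lines for the level in empty droplets. Ifitm1 of VApcMinL lies to the right in all 5 fibroblast subsets and smooth muscle-like cells and to the left in myeloid-like cells, whereas Ifitm3 nearly coincides in the fibroblast subsets.

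The summed members were lower in B-like and plasma-like cells than in fibroblast-like cells. T or innate lymphoid-like cells had 1992 and 2467 CPM, and without the Ifitm genes 1788 and 1627 CPM, the latter pair above the 1488 and 1391 CPM of fibroblast-like cells. In B-like cells the leading members were Irf8, Psmb8 (201 and 222 CPM) and Psmb9 (91.95 and 78.46 CPM). Of 21 members past the minimum there, 3 were at least 1.5-fold higher (Ifitm1, Ifitm2 and Ifitm3) and 3 lower (Irf9, Ddx58 and Gbp3), against 8.12% and 3.91% of genes. Irf9 had 64.9 CPM (57.1 to 73.5) and 40.2 CPM (32.1 to 49.8). The Ifitm genes of B-like cells were low, with Ifitm3 at 33.8 and 64.1 CPM against 537 and 802 CPM in empty droplets. In plasma-like cells Bst2 led with 275 CPM (259 to 292) and 289 CPM (271 to 308), and B-like cells had 45.2 and 43.1 CPM of it. There, 2 of 15 members were at least 1.5-fold higher (Ifitm1 with 2.68 and 26.2 CPM and Ifitm2 with 13.2 and 38.7 CPM, both below the empty droplets) and 1 lower (Igtp, 10.2 and 5.82 CPM), against 14.4% and 5.06%. Of 31 members in myeloid-like cells, 2 were higher (Rtp4 with 15.8 and 25.7 CPM, and Tap1) and 3 lower (Ifitm1, Rsad2 with 59.85 and 36.5 CPM, and Gbp3 with 75.2 and 49.3 CPM), against 5.16% and 10.4%. Tap1 had 45.01 CPM (38.8 to 52.0) and 67.9 CPM (57.9 to 79.2). Free RNA made up at most 12.5% of the myeloid-like UMIs in ApcMin and 3.54% in VApcMinL, and its part in these values was not tested.

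Erythroid-like cells held Isg15 and Rsad2 almost alone. Rsad2 had 270.5 CPM (261.5 to 279.8) in ApcMin and 203 CPM (187 to 219.9) in VApcMinL, and Isg15 190.4 CPM (183 to 198) and 343 CPM (322 to 365). For Rsad2 this was close to the 236 CPM of blood endothelial-like cells of ApcMin. After thinning, Rsad2 was detected in 29.9% (27.5 to 32.4) and 27.9% (23.3 to 32.8) of erythroid-like cells (48.8% and 42.5% without thinning) against 1.36% and 0.562% of B-like cells, at median depths of 9396 and 7366 UMIs against 4870 and 4623. The other members were low: Psmb8 had 1.67 and 2.43 CPM, Bst2 2.31 and 6.60 CPM, and Ifitm3, the most abundant member in fibroblast-like cells, 15.8 and 29.9 CPM. At least 3 of the 6 virus-restriction genes were found in 0.146% and 0.276% of these cells. Single members in erythroid-like cells were not compared between the libraries. The reason is that 815 of the 1025 genes with at least 50 UMIs there were at least 1.5-fold higher in VApcMinL.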

How the data were processed

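Lamina propria cells were profiled with the 10x Genomics 3′ v3 kit. Per the labels, the authors aligned reads to mm10 (GRCm38) and counted UMIs with Cell Ranger 2.1.1, although the headers of the deposited matrices name version 3.1.0. The deposited values are raw UMI counts for all 6794880 barcodes of each library, not normalized. The 3′ tags were counted per gene, so reads shared by near-identical copies are uncertain.

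Barcodes with at least 3000 UMIs and at most 20% mitochondrial UMIs were kept (75 barcodes of ApcMin and 531 of VApcMinL failed the second limit). Counts of all genes were scaled to 10000 per cell. The libraries were then integrated by canonical correlation (Seurat 5.3.0 in R 4.3.3, 30 dimensions) over 1538 genes chosen without the members and pathway genes. Cells were clustered on the integrated values (20 principal components, 20 neighbours, resolution 0.2). Clusters were named from marker lists, and 1 cluster stayed unnamed. Doublets were left in, and in an alternative the likeliest doublets by Scrublet in scanpy 1.11.5 were dropped, 348 in ApcMin and 345 in VApcMinL. Counts of a class were summed per library and given as CPM with exact Poisson intervals, ratios with exact conditional binomial intervals, and shares of cells with Clopper-Pearson intervals (scipy 1.17.1, Python 3.11.15). Shares were compared after thinning each cell to 3000 UMIs. Empty droplets were the barcodes of ranks 45000 to 90000 by UMIs. Free RNA per class was the smallest estimate from hemoglobin, antibody and epithelial transcripts. The libraries were compared in 9 classes, and in all fibroblast-like cells, with at least 100 cells in each library and outside the erythroid-like class, over genes with at least 50 UMIs, at a ratio of 1.5. In the other classes, apart from mesothelial-like and acinar-like cells, only ratios of the summed levels were followed over the processing alternatives. The scripts were tested on simulated data. With 1 library per genotype there was no replicate and no test.

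All members were named, with values for the 3 most abundant per class and up to 5 in each direction past 1.5-fold, and in the same way for the leading other pathway genes, of which a selection is printed. The members and lists were chosen with earlier results of these data known. The 6-gene set, the split of the myeloid-like cells and the alternatives on Cd36, Gpihbp1, Pdgfra, Ptprc, Epcam and Pecam1 were chosen after the levels were seen. Mx2 was not analysed here.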

Additional observations from a re-analysis of the deposited data

Results flagged for a closer look

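For 10 members the ratio of VApcMinL over ApcMin was past 1.5-fold in opposite directions in 2 classes of cells, and the difference between the classes was not tested. Ifit1 had a ratio of 0.285 in Grem1 Ackr4 fibroblast-like cells and 2.92 in blood endothelial-like cells. In Scg2 Chodl Fibin fibroblast-like cells Ifit2 had 0.403, Ifit3 0.1965 and Gbp3 0.601, against 3.73, 2.35 and 1.69 in blood endothelial-like cells. Without the 10 cells with the most member UMIs, the Scg2 ratios of Ifit2 and Ifit3 were 0.930 and 0.965, and among blood endothelial-like cells with at least 6000 UMIs that of Ifit3 was 1.19. Ifit3b had 0.610 in Adamdec1 fibroblast-like cells and 2.32 in blood endothelial-like cells. Usp18 had 0.419 in Grem1 Ackr4 cells and Gbp2 0.598 in Pi16 cells, against 1.58 and 1.62 in blood endothelial-like cells. Igtp had 0.568 in plasma-like cells and 1.66 in blood endothelial-like cells. Usp18, Gbp2, Gbp3 and Igtp were not among the members past 1.5-fold in blood endothelial-like cells with at least 6000 UMIs. Rtp4 had 0.664 in Grem1 Ackr4 cells and 1.62 in myeloid-like cells, the latter 0.905 after thinning. Ifitm1 had 0.395 in myeloid-like cells and 9.76 in plasma-like cells, where its level was below that of empty droplets in both libraries. The myeloid-like ratio rested on cells with mast cell-type transcripts, and the remaining myeloid-like cells had 282 and 244 CPM of Ifitm1.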

How the results depend on the processing

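No paired analysis was possible because there was a single library of ApcMin and a single one of VApcMinL. All values here are ratios of VApcMinL over ApcMin, or counts of members past 1.5-fold. In blood endothelial-like cells the direction of both summed levels held under every alternative run, and 0 members were at least 1.5-fold lower. The ratio of the summed members moved from 1.38 to 1.17 in cells with at least 6000 UMIs, 1.33 without likely doublets, 1.425 with cells classed by their own markers, 1.46 after thinning, 1.335 without cells holding a Pdgfra, Ptprc or Epcam UMI and 1.555 without the 3 most abundant members. Without Ifitm1, Ifitm2 and Ifitm3 it moved from 1.64 to 1.30, 1.52, 1.75, 1.75 and 1.55 under the first 5 of these, in that order. The count of 19 became 8 at 6000 UMIs and 7 at 2-fold, and Ifitm3 turned to 0.997 at 6000 UMIs.

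In all fibroblast-like cells the summed ratio of 1.13 became 1.12 with cells classed by their own markers, 1.11 after division by the median ratio and 0.935 without the 3 most abundant members. Without the Ifitm genes, 0.935 became 0.9485 without the 10 cells with the most member UMIs and 0.9205 after division by the median ratio. At 2-fold, 1 member was higher and 1 lower. Over the alternatives the counts of members at least 1.5-fold higher and lower ran from 0 to 6 and 0 to 4 in plasma-like, 1 to 4 and 0 to 5 in B-like, 0 to 5 and 1 to 5 in myeloid-like, 1 to 3 and 1 to 4 in Pi16, 0 to 2 and 3 to 9 in Grem1, 1 to 4 and 1 to 4 in Adamdec1, 1 to 2 and 1 to 3 in Lpl, and 1 to 4 and 0 to 10 in Scg2 cells.

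Of the other ratios whose interval excluded 1, these turned direction (ratios whose interval included 1 also crossed it under some alternatives, such as Ifitm2 in blood endothelial-like cells, from 0.963 to 1.01 after thinning). Without the 3 most abundant members the sum had ratios of 0.939 in Grem1, 0.966 in Adamdec1, 0.989 in Lpl and 0.852 in Scg2 cells, 1.07 in myeloid-like, 0.829 in lymphatic endothelial-like and 1.03 in epithelial-like cells. With cells classed by their own markers, it was 0.957 in plasma-like, 1.01 in myeloid-like and 0.825 in T or innate lymphoid-like cells, and Rsad2 had 1.685 in Adamdec1, Ifitm2 0.947 in Scg2 and Ifitm3 0.882 in plasma-like cells. Without the 10 cells with the most member UMIs, the sum was 0.994 in plasma-like cells, the sum without Ifitm genes 1.07 in Scg2, 0.962 in myeloid-like and 1.14 in lymphatic endothelial-like cells, Ifit1 5.79 and Rsad2 1.29 in Scg2, and Ifitm3 0.955 in plasma-like cells. Without likely doublets, the sum was 0.9935 in Scg2 and 0.970 in glial-like cells, and without Ifitm genes 1.005 in T or innate lymphoid-like cells. After division by the median ratio, the sum was 0.998 in plasma-like, 1.05 in myeloid-like and 0.504 in erythroid-like cells (0.488 without Ifitm genes). After thinning, Oas1a had 2.17 in Pi16, Rtp4 0.905 in myeloid-like cells and the sum without Ifitm genes 0.978 there. The causes were not tested. Of the remaining values, 1167 moved by no more than their interval and 225 by more.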
